A study of Mus musculus with 12 samples.

Results

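From a list, 41 genes that encode collagen chains were followed in mouse mesenchymal stem cells (MSCs), as 41 of the 21851 protein-coding genes of the GENCODE M21 annotation of the mm10 genome. They were taken by name and not by any measured value, and all 41 matched the annotation. The chains were divided by the structure they build into 8 fibrillar, 9 basement membrane, 7 cartilage and 17 other collagens. For each gene, all peaks lying in the gene body or within 20000 bp of either end were read. This region is called the window of the gene below. Collagens tend to be long genes, so the 10105 protein-coding genes with a body over 20000 bp, as had 37 of the 41 collagen genes, were given as a second background.

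MSCs had been isolated from the bones of C57BL6/N mice aged 3 to 5 months, sorted as CD45-/Ter-119-/Sca-1+/CD140a+ cells and then kept for 7 days at 2% oxygen (hypoxia) or 21% oxygen (normoxia), while the sample labels call them bone-marrow cells. ChIP-seq, in which DNA bound to a modified histone is recovered and sequenced, was done for acetylated lysine 27 of histone H3 (H3K27ac) and for its trimethylated lysine 4 (H3K4me3), with 2 libraries for each mark and 2 for input chromatin at each oxygen level. The libraries of a mark and oxygen level were combined into 1 peak list, so every value below is 1 value per list and no difference between oxygen levels has a replicate check or a test. The depth of the libraries and the spread between them are unknown here.

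H3K4me3 marks promoters that are open to transcription, whether strongly used or only poised. H3K27ac is laid down at active promoters and enhancers, and in highly transcribed genes it can run far into the gene body. Collagens are triple helices of 3 chains, and MSCs and the osteoblasts that derive from them build mainly the fibrils of types I, III and V and the beaded filaments of type VI, whereas type IV forms the sheet under epithelia and vessels and types II, IX, X and XI are made by chondrocytes.

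The labelled cell type was checked by its markers at the transcription start. H3K27ac lay at the start of 10 of 14 mesenchymal markers at both oxygen levels, Pdgfra and Ly6a (which encode the sorted CD140a and Sca-1) among them, and at 1 of 10 blood markers (Csf1r), 0 of 7 endothelial and 0 of 6 epithelial markers, beside 37.6% of all protein-coding genes at 2% and 37.0% at 21% oxygen. The mesenchymal markers without H3K27ac at the start were Twist2, Eng, Nt5e and Lepr. Ptprc, which encodes CD45, had no H3K27ac there either. Of 8 cartilage genes, 3 (Sox9, Sox6 and Comp) carried it, a share close to that of all genes, and Acan, the cartilage proteoglycan, did not. H3K4me3 lay at the start of 7 of these 8, Acan among them, beside 58.9% of all genes.

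The promoters below show how far promoter sequence differed among genes with and without the marks. For each class they belong to the pair of genes with the most acetylated bases among those with a promoter in the RefSeq table for GRCm38.p6, the build of mm10. Each is given 5′ to 3′ on the strand of the gene and ends at the base before the RefSeq start or before the exon annotated there. Capitals mark the TATA box (TATAAA), the CCAAT box (CCAAT) and the GC box (GGGCGG), searched on both strands.
Col3a1, chr1:45311288-45311537, plus strand: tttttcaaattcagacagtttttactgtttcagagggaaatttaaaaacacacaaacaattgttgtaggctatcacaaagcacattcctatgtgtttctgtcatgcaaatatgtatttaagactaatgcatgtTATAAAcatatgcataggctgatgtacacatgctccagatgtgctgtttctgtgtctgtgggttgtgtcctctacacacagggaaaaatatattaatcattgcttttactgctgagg
Col5a1, chr2:27886175-27886424, plus strand: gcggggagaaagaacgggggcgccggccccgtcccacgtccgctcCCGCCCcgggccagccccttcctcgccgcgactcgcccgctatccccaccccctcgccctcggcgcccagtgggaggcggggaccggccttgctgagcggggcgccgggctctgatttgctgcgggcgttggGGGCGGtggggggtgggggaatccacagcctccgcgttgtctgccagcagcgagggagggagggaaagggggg
Col7a1, chr9:108953336-108953585, plus strand: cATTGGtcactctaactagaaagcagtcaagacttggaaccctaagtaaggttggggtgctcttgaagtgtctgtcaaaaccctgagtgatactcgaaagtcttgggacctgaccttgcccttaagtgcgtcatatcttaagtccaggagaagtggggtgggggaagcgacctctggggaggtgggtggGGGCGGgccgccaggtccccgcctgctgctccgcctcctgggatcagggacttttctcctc
Col18a1, chr10:77166549-77166780, minus strand: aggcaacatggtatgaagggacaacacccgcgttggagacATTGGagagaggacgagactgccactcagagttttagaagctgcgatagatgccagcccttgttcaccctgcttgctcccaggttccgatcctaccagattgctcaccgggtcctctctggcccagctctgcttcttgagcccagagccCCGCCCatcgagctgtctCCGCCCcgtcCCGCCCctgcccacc
Col11a1, chr3:114030290-114030539, plus strand: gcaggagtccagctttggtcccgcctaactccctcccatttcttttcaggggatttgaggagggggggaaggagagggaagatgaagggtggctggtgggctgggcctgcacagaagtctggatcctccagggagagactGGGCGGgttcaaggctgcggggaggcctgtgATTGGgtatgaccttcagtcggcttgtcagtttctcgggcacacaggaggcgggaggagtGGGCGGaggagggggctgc
Col11a2, chr17:34038888-34039137, plus strand: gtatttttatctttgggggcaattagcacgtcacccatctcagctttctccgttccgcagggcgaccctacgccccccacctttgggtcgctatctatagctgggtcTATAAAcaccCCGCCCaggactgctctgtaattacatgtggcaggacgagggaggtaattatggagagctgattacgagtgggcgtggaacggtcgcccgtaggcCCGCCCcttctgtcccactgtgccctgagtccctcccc
Col8a1, chr16:57754738-57754987, minus strand: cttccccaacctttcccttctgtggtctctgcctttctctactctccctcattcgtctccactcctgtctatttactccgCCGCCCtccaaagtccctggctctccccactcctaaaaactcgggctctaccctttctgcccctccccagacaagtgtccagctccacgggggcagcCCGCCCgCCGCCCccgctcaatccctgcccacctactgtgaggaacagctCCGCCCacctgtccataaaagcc
Col8a2, chr4:126286544-126286792, plus strand: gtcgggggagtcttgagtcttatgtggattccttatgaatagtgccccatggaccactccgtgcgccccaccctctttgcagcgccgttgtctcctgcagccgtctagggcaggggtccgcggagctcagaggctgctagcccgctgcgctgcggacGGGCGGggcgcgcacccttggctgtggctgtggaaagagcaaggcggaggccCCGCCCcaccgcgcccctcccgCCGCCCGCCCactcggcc
Col3a1 carried both marks and its promoter had 0 CpG dinucleotides, 35.2% G or C and a TATA box, whereas the promoter of Col5a1, which carried both as well, had 28 CpG, 76.4% G or C and 2 GC boxes. Col7a1 and Col11a2 carried neither mark at the start, and both promoters held GC boxes.

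Marks at the transcription start divided the collagen genes by the structure they build. A gene was counted when a peak reached within 1000 bp of any of its annotated starts. H3K4me3 was present at 30 of 41 genes (73.2%, 95% Wilson interval 58.1 to 84.3%), against 58.9% of all protein-coding genes and 73.5% of the long ones. It covered 8 of 8 fibrillar and 8 of 9 basement membrane genes, but 2 of 7 cartilage genes. It was also present at 12 of 17 other collagens. H3K27ac was present at 14 of 41 starts (34.1%, interval 21.6 to 49.5%), against 37.6% of all genes and 46.2% of the long ones at 2% oxygen, and 37.0% and 45.5% at 21%. Here the classes differed in another order, with 6 of 8 fibrillar, 0 of 9 basement membrane, 1 of 7 cartilage and 7 of 17 other collagens. These counts and the genes behind them were the same at 2% and 21% oxygen. They depended on low scores for H3K4me3. Without the lowest-scoring 25% of the list at 2% oxygen, 17 starts kept it (3 fibrillar, 2 basement membrane, 1 cartilage and 11 other), and 11 kept H3K27ac (6 fibrillar, 0 basement membrane, 1 cartilage and 4 other). In lists made from many cells, a mark present in fewer cells and a weaker mark in all cells cannot be told apart.

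Both marks were thus at the start of 14 genes, H3K4me3 alone at 16, neither at 11 and H3K27ac alone at 0. Without the lowest-scoring 25% of each list these counts were 8, 9, 21 and 3, the 3 being Col1a2, Col5a1 and Col27a1. Their highest H3K4me3 scores at the start (123, 121 and 123) lay just under the limit of 124, beside a list median of 129. The H3K4me3 peaks of these 3 genes were thus left out by a narrow margin. With all peaks, both marks were found at Col1a1, Col1a2, Col3a1, Col5a1, Col5a2 and Col27a1 among the fibrillar genes, at Col11a1, and at Col6a1, Col6a2, Col6a3, Col8a1, Col8a2, Col12a1 and Col16a1. H3K4me3 without H3K27ac was found at 16 genes (39%, against 22.5% of all and 28.1% of long genes). They were Col5a3, Col24a1, the 6 type IV genes Col4a1 to Col4a6, Col15a1, Col18a1, Col2a1, Col13a1, Col14a1, Col19a1, Col23a1 and Col25a1. The H3K4me3 of Col25a1 lay at a start 48500 bp inside the longest form of the gene. Neither mark was found at the start of Col7a1, Col9a1, Col9a2, Col9a3, Col10a1, Col11a2, Col17a1, Col20a1, Col22a1, Col26a1 and Col28a1 (11 genes, 26.8%, against 39.9% of all and 25.7% of long genes).

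The width of H3K4me3 went with the state of the start. Touching peaks of 1 list were joined for this measure. The stretch of H3K4me3 at the start had a median of 5000 bp (3000 to 9000 bp) at the 14 genes with both marks and of 2000 bp (2000 to 4500 bp) at the 16 genes with H3K4me3 alone, beside a median of 2500 bp over all 13138 stretches. The widest were those of Col1a2 (9000 bp, rank 61), Col1a1 (8500 bp, rank 85) and Col5a1 (7000 bp, rank 175). Since all 4 lists come from 1 joint segmentation of the genome, the borders of the marks are not independent of each other. For the same reason, a peak called at both oxygen levels has the same borders and width at each. The Wilson intervals allow for counting error alone, and peaks next to each other are not independent.

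**Figure D1:**
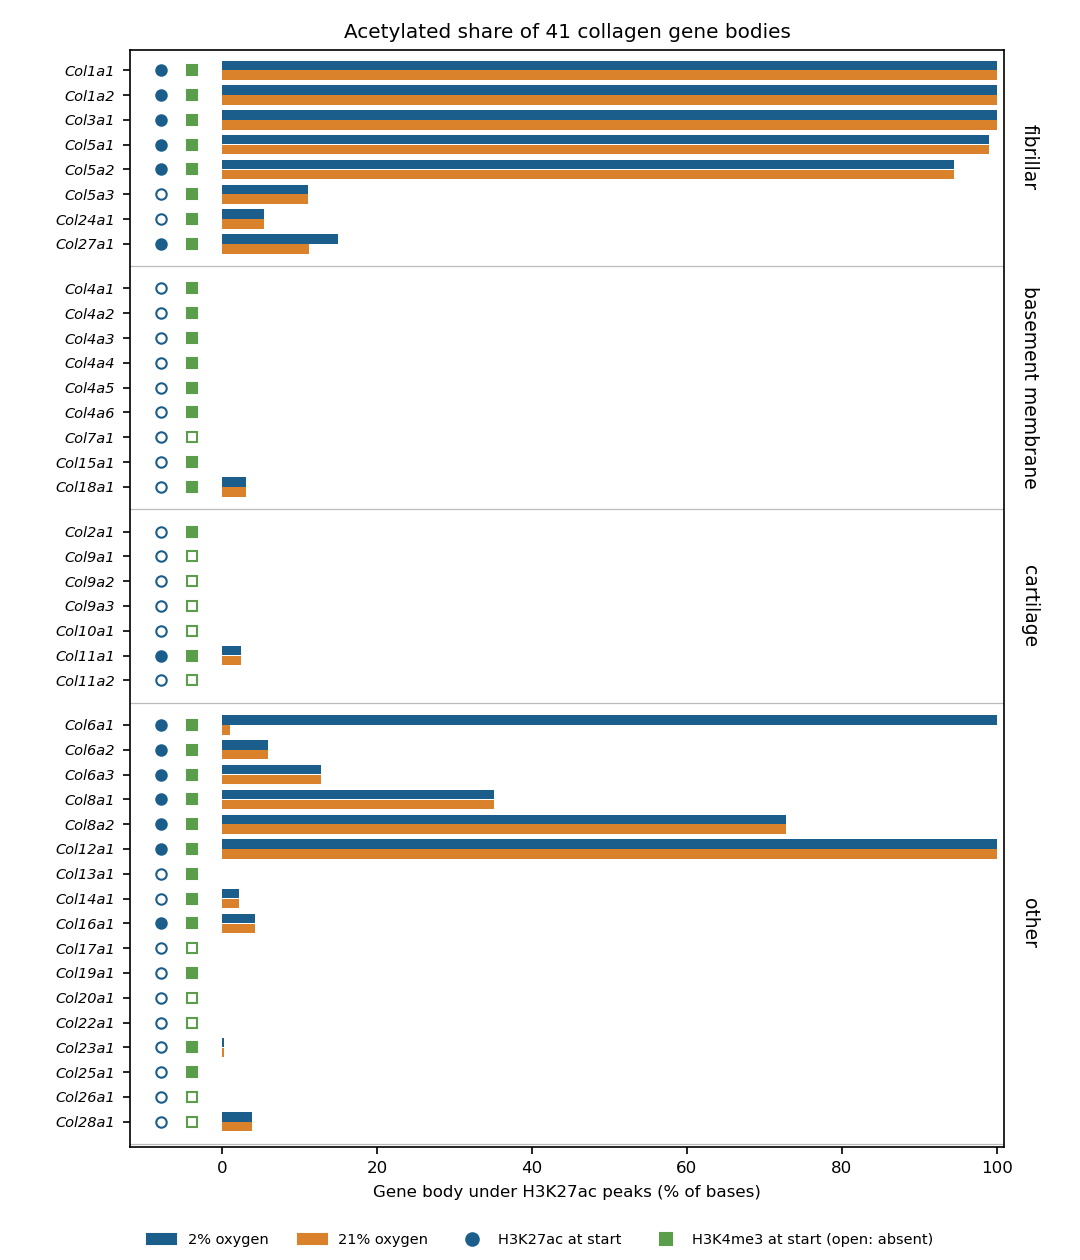
Each bar gives the share of a gene body (in % of its bases) that lay under H3K27ac peaks at 2% oxygen (blue) and at 21% oxygen (orange), for 41 collagen genes in 4 classes. Filled circles and squares mark H3K27ac and H3K4me3 at the start at 2% oxygen (open: absent), and 7 genes reach over 90% at 2% oxygen, of which Col6a1 alone stands at 0.967% at 21%.

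Of the fibrillar genes, 5 were acetylated over more than 90% of the body. Col1a1 and Col1a2 encode the α1 and α2 chains of type I collagen, the main protein of bone matrix. Col1a1 (chr11:94936224-94953042, plus strand) had 100% of its body under H3K27ac at both oxygen levels, in 3 touching peaks that formed a stretch of 48500 bp. The stretch began 25223 bp before the start and ended 6458 bp past the gene. The peak over its start had a score of 135 in each list, the score being the authors' value per peak, which ran from 50 upwards with the top class at 1000. This class held 3379 of 15203 H3K27ac peaks at 2% and 2802 of 14832 at 21% oxygen. In collagen windows the highest H3K27ac score below it was 151. A step between 1000 and a lower score is thus a change of class and cannot be read as a ratio. Col1a2 (chr6:4504814-4541544, plus strand) was also covered over 100% of its body, in a stretch of 40500 bp, and a separate peak of 14000 bp ended 9314 bp before its start.

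Col3a1 and Col5a2 lie tail to tail on chromosome 1, so their windows overlap. Col3a1 (chr1:45311538-45349706, plus strand) encodes the chain of type III collagen, which forms fibrils with type I. Its body was covered over 100% by a stretch of 51000 bp that ran 11794 bp past its end. Col5a2 (chr1:45374321-45503282, minus strand) encodes a chain of type V collagen, which sets the diameter of type I fibrils. It was covered over 94.4% of its 128962 bp, with a single peak of 95000 bp. This peak had a score of 68 at 2% and 70 at 21% oxygen. It thus lay in the lowest-scoring 25% of each list (limits of 73 and 71). Col5a1 (chr2:27886425-28039514, plus strand) encodes the partner chain of Col5a2 and was covered over 99.0% of 153090 bp, with a single peak of 125500 bp. A further peak of Col5a1 spanned 29924 to 19925 bp before the start and had a score of 1000 at both oxygen levels.

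These peaks were among the widest in the lists. By width, the 125500-bp peak of Col5a1 ranked 5 and the 95000-bp peak of Col5a2 ranked 14 among 15203 H3K27ac peaks at 2% oxygen, whose median width was 3500 bp. The peak over the body of Col12a1, a gene of the class of other collagens, was wider still, at 130500 bp and rank 2. The same ranks were found at 21% oxygen. A cut at 90% of the body was chosen after the values were seen. It counted 7 of 41 collagen genes (17.1%) at 2% oxygen, against 3.53% of all genes. Of the 37 collagen genes with a body over 20000 bp, 5 passed it, against 0.96% of all long genes. Above 100000 bp of body length there were 2484 genes and 7 of them passed that cut. Of these 7, 3 were collagens (Col5a1, Col5a2 and Col12a1), and the others were Fndc3b, Cald1, Lrp6 and Nfix. Exons made up 8.66% of the acetylated bases of collagen bodies, beside 5.05% of all bases of the 41 bodies. The acetylated bases lay in 20 of these bodies, so the shares compare different genes. No preference of H3K27ac for exons can be read from them.

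**Figure D2:**
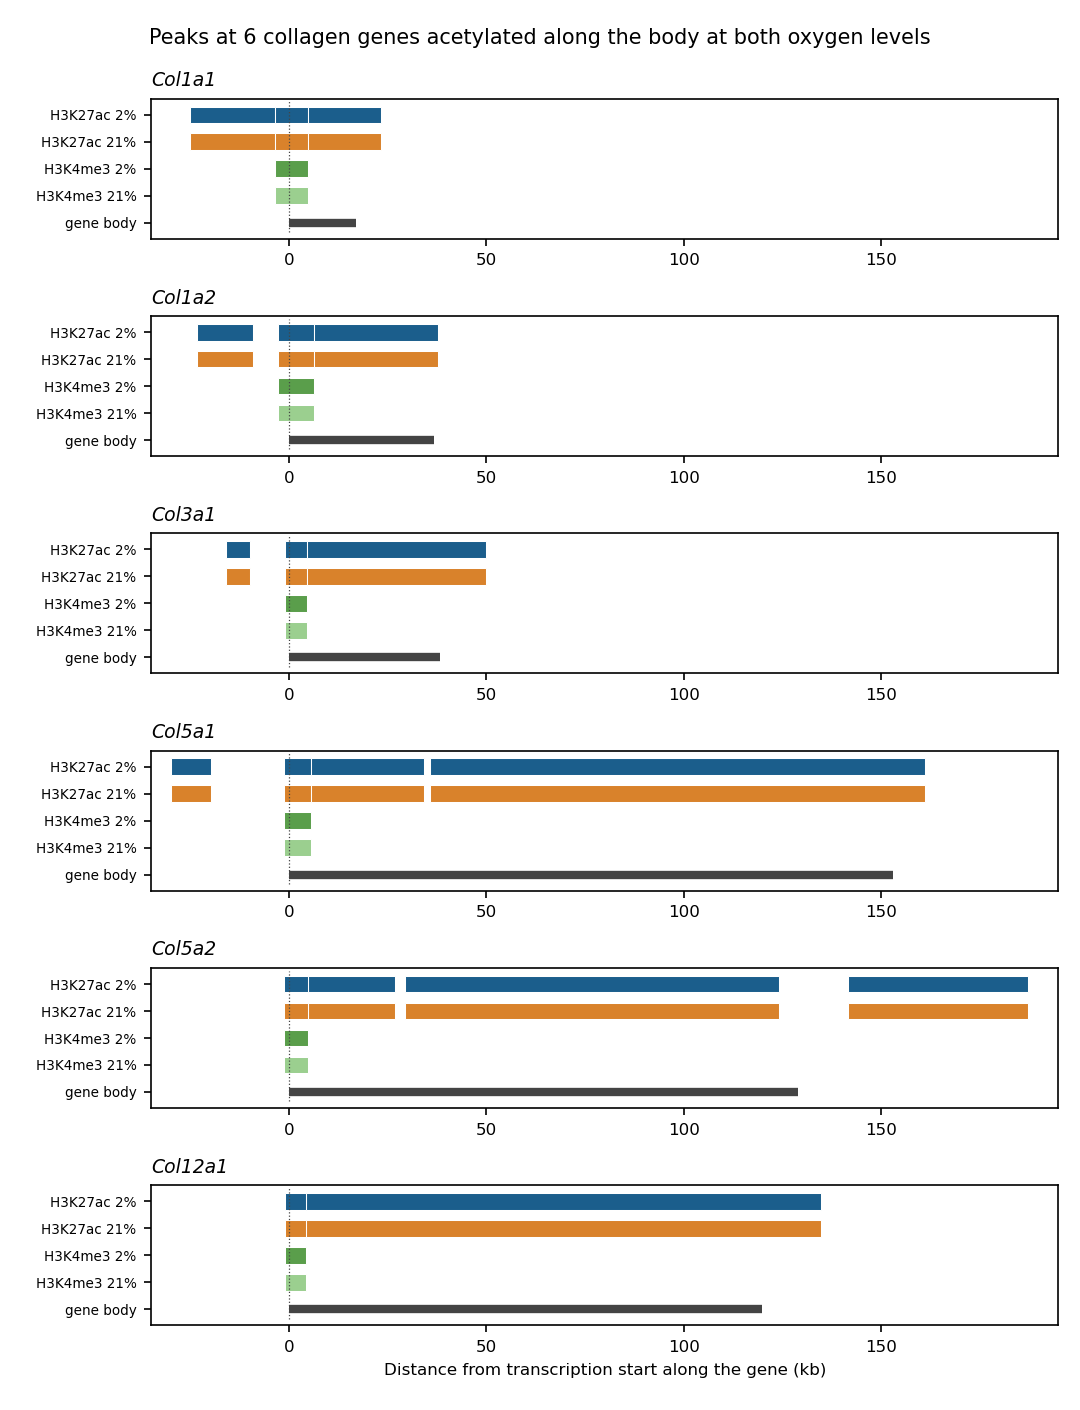
Peaks of the 4 lists are drawn against the distance from the transcription start along the gene (kb), with the gene body in grey, for Col1a1, Col1a2, Col3a1, Col5a1, Col5a2 and Col12a1. H3K4me3 is held to the start, while H3K27ac at both oxygen levels runs to or past the end of the gene in all but Col5a2, where it stops 4680 bp short, and the right-hand peak drawn for Col5a2 belongs to the Col3a1 locus.

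The 3 remaining fibrillar genes were acetylated over small parts only. Col27a1, a fibrillar chain made in cartilage and other tissues, had 18000 bp of its window under H3K27ac at 2% oxygen and 13500 bp at 21%. Its widest peak, of 10000 bp, lay 94997 to 104996 bp past the start and had a score of 1000 in both lists. Col5a3, a minor chain of type V collagen, had 1 peak of 5000 bp inside the gene and none at the start. Col24a1, whose product resembles that of Col27a1, had a 9000-bp peak 124029 bp and a 5000-bp peak 178029 bp past the start. Its H3K4me3 peak had a score of 54, near the lowest score of 50.

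Basement membrane genes had H3K4me3 and almost no H3K27ac. The type IV genes are arranged as 3 head-to-head pairs, and each pair shared 1 H3K4me3 peak. Col4a1 and Col4a2, the chains of nearly all basement membranes, shared a peak of 3500 bp with a score of 126. Col4a3 and Col4a4, chains of the glomerular membrane of the kidney, shared 2000 bp with a score of 59. Col4a5 and Col4a6 on chromosome X shared 2000 bp with a score of 50, the lowest in the list. The 6 genes therefore rested on 3 peaks, and none of the 6 gene bodies held an H3K27ac base at either oxygen level.

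H3K27ac lay in 3 of 9 basement membrane windows, and in 2 of these it sat at the start of a neighbouring gene. The 2000 bp in the window of Col4a3 lay at the start of Mff, and the 3500 bp in the window of Col7a1, the anchoring fibril collagen of skin, lay at Pfkfb4. Col18a1, from which endostatin is cut, had the only H3K27ac inside a body of the class. This peak of 3500 bp lay 67048 to 70547 bp past the start and had a score of 129 at 2% and 107 at 21% oxygen. Col15a1, a close relative of Col18a1, had an H3K4me3 peak of 2000 bp with a score of 117 and 0 acetylated bases.

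Cartilage collagens showed a similar lack of acetylation with fewer H3K4me3 peaks. Col11a1, which encodes a chain that also joins the type V fibrils of other tissues, was the exception. A peak from 1039 bp before to 4460 bp past its start carried both marks, with an H3K27ac score of 122 at 2% and 89 at 21% oxygen. Col2a1, the main fibril chain of cartilage, had H3K4me3 over 4500 bp with a score of 80, and 0 bases of H3K27ac in its window. Col9a1, Col9a2 and Col9a3 (the chains on the surface of cartilage fibrils), Col10a1 (the chain of hypertrophic cartilage) and Col11a2 had neither mark at the start. The H3K27ac in 3 of these windows lay at other genes. It covered 2000 bp at the start of Ogfr near Col9a3 and 85 bp of a peak at Nt5dc1 near Col10a1. Near Col11a2 it covered 10500 bp over the starts of Ring1, H2-Ke6, Slc39a7 and Rxrb.

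The other collagens ran from full to no acetylation. Col12a1 (chr9:79598991-79718831, minus strand) encodes a chain that lies along type I fibrils and had 100% of its 119841 bp under H3K27ac at both oxygen levels. Its stretch of 136000 bp ranked 3 of 12835 joined stretches. Col8a1 and Col8a2 encode the chains of a network-forming collagen best known from the cornea and vessels. Col8a2 had 72.8% and Col8a1 35.1% of the body acetylated at both oxygen levels. In the body of Col8a1, the peaks of 13000 and 19500 bp had scores of 57 and 59 at 2% oxygen. They lay in the lowest-scoring 25% of that list (limit of 73). At 21% oxygen their scores were 59 and 73 (limit of 71). Its 11500-bp peak had 84 at 2% and 77 at 21%. The peak over the start of Col8a1 was near the lowest score in both lists, with a score of 52 at 2% and 50 at 21% oxygen.

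Col6a1, Col6a2 and Col6a3 encode the 3 chains of the main type VI collagen, the beaded filament around cells. Col6a1 was covered over its whole body at 2% oxygen, and its values at each oxygen level are given below. Col6a2 had a 2000-bp peak over the start with a score of 60 in both lists and an acetylated body share of 5.85%. A peak of 16000 bp with a score of 130 in both lists lay 16371 to 32370 bp before its start, between Col6a2 and Col6a1. Col6a3 had 12.8% of the body acetylated, and its start had a score of 66 at 2% and 58 at 21% oxygen. Col16a1, which lies along fibrils and basement membranes, had both marks over 3500 bp at the start and an H3K27ac score of 1000 at 2% and 108 at 21% oxygen.

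Of the remaining other collagens, Col14a1 had H3K4me3 with the top score of 1000 at its start, and its single H3K27ac peak lay 155751 bp past the start with a score of 52 at 2% and 50 at 21%. Col28a1 had no mark at the start, an H3K27ac peak of 7500 bp inside the gene and another of 2000 bp at the start of Mios. The acetylated bases in the windows of Col20a1 and Col23a1 (3466 and 3000 bp) lay at the starts of Arfgap1 and Phykpl. No H3K27ac was found in the windows of Col13a1, Col17a1, Col19a1, Col22a1, Col25a1 and Col26a1. Of these, Col17a1, the hemidesmosome collagen of epithelia, Col22a1, of muscle-tendon junctions, and Col26a1 also had no H3K4me3 in theirs.

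Counted over all windows, 26 of 41 genes had some H3K27ac at each oxygen level, against 54.9% of all genes at 2% and 54.5% at 21% oxygen, and 63.6% and 63.3% of the long ones. Inside the gene body H3K27ac was found in 20 genes (48.8%), against 42.1% of all genes and 54.0% of the long ones. Of 61 H3K27ac peaks in these windows at 2% oxygen, 16 lay at a collagen start, 12 at the start of another gene only and 33 at no start. Acetylated width separated the classes more than the presence of a peak did. Fibrillar windows, once joined where they overlap, held 473 kb of H3K27ac in 1104 kb (42.8%) at 2% oxygen. Other collagens held 9.57%, cartilage collagens 3.09% and basement membrane collagens 0.585% of their windows. The joined windows of all protein-coding genes held 5.52%, and those of the long genes 5.69%. The order of the 4 classes was the same under the 6 other settings that bear on width, but the values were not. Without the lowest-scoring 25% of each list the fibrillar share was 32.5% and the basement membrane share 0.227%. The cartilage share was 1.21% in gene bodies alone and 1.16% with peaks assigned by the nearest start, and 10500 bp of the 20.1 kb behind it lay at the neighbours of Col11a2.

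The median acetylated share of the body was 96.7% for fibrillar, 2.11% for other (0.967% at 21% oxygen), and 0 for both cartilage and basement membrane collagens at 2% oxygen, beside a median of 1.39% for long genes. Within the classes the spread was wide. Fibrillar bodies ran from 5.39% (Col24a1) to 100%, and other collagens from 0 to 100%. In basement membrane and cartilage collagens the highest body shares were 3.06% (Col18a1) and 2.35% (Col11a1).

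H3K27ac calls differed between the oxygen levels at 3 of 41 collagen genes (7.32%, interval 2.52 to 19.4%), beside 4.68% of all genes and 4.93% of long genes with a hypoxia-only peak in the window. Hypoxia-only means that a peak was in the list at 2% oxygen and shared no base with the list at 21%. In the windows, 4 of 61 H3K27ac peaks (6.56%, interval 2.58 to 15.7%) were hypoxia-only, beside 3.87% of the whole list. In the other direction 0 of 57 peaks (interval 0 to 6.31%) were normoxia-only, beside 1.47% of the whole list. Such a peak was held by 0 of 41 genes, beside 1.15% of all and 1.67% of long genes. The hypoxia-only shares of all genes and of the whole list lay within the intervals of the collagen shares. Acetylated bases in the windows came to 810 kb at 2% and 783 kb at 21% oxygen, or 12.5% and 12.1% of the windows. All of the 27500 bp between them came from Col6a1, Col27a1 and Col8a2, and 72.7% from Col6a1. The other 38 genes, 23 of them with some H3K27ac, had the same acetylated bases in both lists. Because the lists share 1 segmentation, width could differ only by whole segments. Equal widths therefore do not show that the amount of H3K27ac was the same. When the lowest-scoring 25% of each list was left out, the order turned, with 9.26% at 2% and 9.86% at 21% oxygen, and 6 hypoxia-only and 5 normoxia-only peaks were then counted.

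Col6a1 (chr10:76708792-76726168, minus strand) had the largest difference. At 2% oxygen its body of 17377 bp lay wholly under H3K27ac, and at 21% oxygen 0.967% of it did. The peaks at 2% oxygen ran unbroken over 29000 bp, from 8832 bp before the start to 20167 bp past it, in 4 segments. The segment from 8832 to 333 bp before the start was in both lists with a score of 127. The 500 bp over the start itself had a score of 127 at 2% and 68 at 21% oxygen. The next 2500 bp, just inside the gene, were hypoxia-only with a score of 120, and H3K4me3 covered them in both lists with a score of 132. The last 17500 bp, over the rest of the body, were hypoxia-only with a score of 52, just above the lowest score of 50. These segments touch a peak present in both lists, so that with peaks within 1000 bp of each other joined, Col6a1 counted as shared and 2 hypoxia-only peaks remained in collagen windows. Among all protein-coding genes, 26 (0.119%, and 0.0396% of the long ones) had over 50% of the body acetylated at 2% and under 10% at 21% oxygen, and 1 (0.00458%) the reverse. These limits were chosen after the values of Col6a1 were seen.

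The hypoxia-only peak of Col27a1 (chr4:63250501-63255000) covered 4500 bp, 36497 to 40996 bp past the start, with a score of 51. The peak near the start of the same gene was in both lists, with a score of 81 at 2% and 52 at 21% oxygen. At Col8a2 the hypoxia-only peak (chr4:126274501-126277500) covered 3000 bp, 12292 to 9293 bp before the start, over the end of the neighbouring gene Trappc3, again with a score of 51. Of the 4 hypoxia-only peaks, 3 thus had scores of 51 or 52, and the 2500-bp segment of Col6a1 was the exception. H3K4me3 was called at neither of the peaks of Col27a1 and Col8a2.

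**Figure D3:**
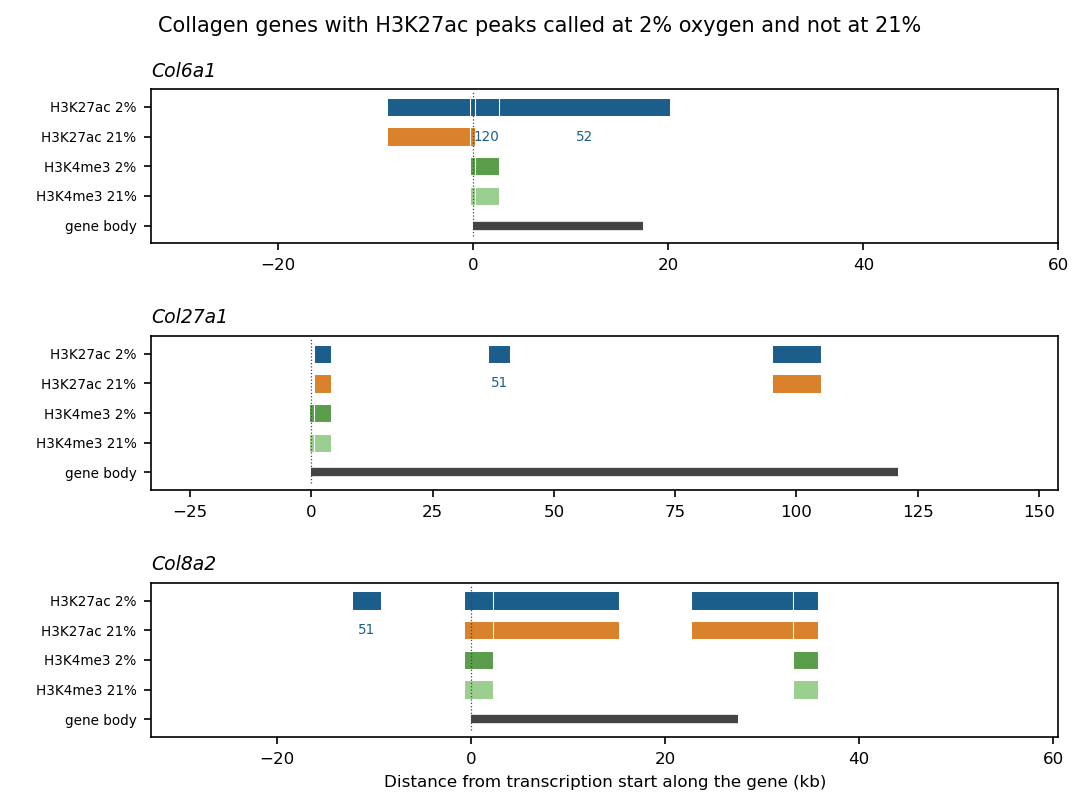
Peaks of the 4 lists are drawn against the distance from the transcription start along the gene (kb) for Col6a1, Col27a1 and Col8a2, with the gene body in grey. Numbers in the row of H3K27ac at 21% oxygen give the score that the peak above had at 2% oxygen where none was called at 21% (120 and 52 at Col6a1, 51 at Col27a1 and 51 at Col8a2).

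The central 300 bases of the hypoxia-only peak of Col27a1 are printed here because its call differed between the oxygen levels and its centre lies outside any exon. They were read from GRCm38.p6 on the strand of the gene and lie in an intron of it. Capitals mark the core of the hypoxia response element (ACGTG or GCGTG), the Runx motif (TGTGGT) and the AP-1 motif (TGACTCA), searched on both strands.
Col27a1, chr4:63252601-63252900, plus strand: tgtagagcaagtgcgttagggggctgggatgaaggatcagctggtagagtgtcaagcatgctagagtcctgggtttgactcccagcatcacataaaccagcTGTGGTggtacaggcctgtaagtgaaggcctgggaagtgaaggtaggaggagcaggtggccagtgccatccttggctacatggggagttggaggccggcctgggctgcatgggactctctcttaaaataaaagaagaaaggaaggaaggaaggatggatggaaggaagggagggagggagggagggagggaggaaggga
This stretch held 1 Runx motif and neither of the other motifs. Over the central 300 bases of all 15203 H3K27ac peaks at 2% oxygen, 41.8% held the hypoxia core, 17.9% the Runx motif and 5.34% the AP-1 motif.

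Scores were compared for the 57 H3K27ac peaks of collagen windows found in both lists. The score was higher at 2% oxygen in 22 (38.6%), equal in 21 (36.8%) and higher at 21% oxygen in 14 (24.6%), beside 39.9%, 43.6% and 16.6% of 14614 shared peaks over the whole lists. Of the 15 that lay at a collagen start, 7 were higher at 2%, 8 were equal and 0 were higher at 21%. At the starts of all protein-coding genes these shares were 37.2%, 54.9% and 7.86% of 7709 peaks. The 7 belonged to Col27a1, Col11a1, Col6a1, Col6a3, Col8a1, Col8a2 and Col16a1. Away from the starts, both directions occurred within the fibrillar genes. The 28500-bp peak in the body of Col5a1 had a score of 1000 at 2% and 92 at 21% oxygen, and the 45500-bp peak of Col3a1 had 115 at 2% and 1000 at 21%. These are steps to or from the top class and not ratios. The 130500-bp peak of Col12a1 had 122 and 99. How the score is defined was not stated, and its median over the whole list was 111 at 2% and 102 at 21% oxygen. Ranked within its own list instead, 19 of 57 peaks (33.3%) stood higher at 2% oxygen and 38 (66.7%) at 21%, beside 30.3% and 69.7% of the whole lists. By rank, 7 of the 15 peaks at a collagen start stood higher at 2% oxygen and the 8 of equal score stood higher at 21%. Scores were lower over the whole list at 21% oxygen, so that an equal score ranked higher there. The direction of the 8 peaks, and of all 21 of equal score among the 57, thus tells nothing about the peaks themselves.

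**Figure D4:**
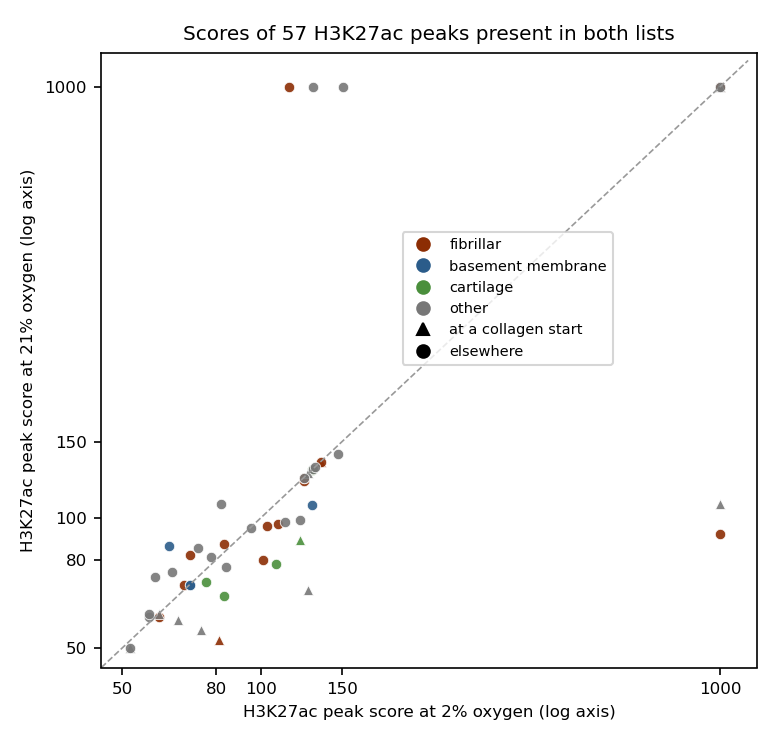
Each point is an H3K27ac peak of a collagen window present in both lists, with its score at 2% oxygen on the x axis and at 21% oxygen on the y axis (both log axes), coloured by class, with triangles for peaks at a collagen start and circles for the rest. Points on the dashed line have equal scores, and none of the 15 triangles lies above it; peaks with the same pair of scores cover each other.

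H3K4me3 calls were the same at both oxygen levels at every collagen gene. All 50 H3K4me3 peaks of the windows were in both lists with the same score, as were all 14600 peaks shared between the whole lists, while 0.0641% of all genes and 0.109% of long genes had an H3K4me3 peak in 1 list only. A score that is equal at every shared peak cannot show a difference between the oxygen levels. Only the presence of a peak could therefore differ, and a change in the strength of H3K4me3 could not be seen.

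Promoter composition was set beside the state of the start for the 32 genes with a sequence in the RefSeq table. The bases end at a RefSeq start, while the state was read at any GENCODE start. The RefSeq start lay 804 bp inside the annotated gene at Col1a2, 1408 bp at Col27a1 and 49344 bp at Col25a1. At the other genes it lay 299 bp or less from the first annotated start. The median number of CpG dinucleotides in the 250 bases before the start was 10 (0 to 28) for 11 genes with both marks, 12 (3 to 31) for 13 genes with H3K4me3 alone and 3.5 (0 to 14) for 8 genes with neither mark. Over all 32851 promoters of the table it was 6. Genes with and without H3K27ac thus overlapped widely once H3K4me3 was present. Col4a1 (31) and Col4a2 (26), without H3K27ac, were as rich in CpG as Col5a1 (28) and Col8a2 (24), which carried it. Col6a1 and Col6a3 had 3 each, and Col3a1 had 0.

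**Figure D5:**
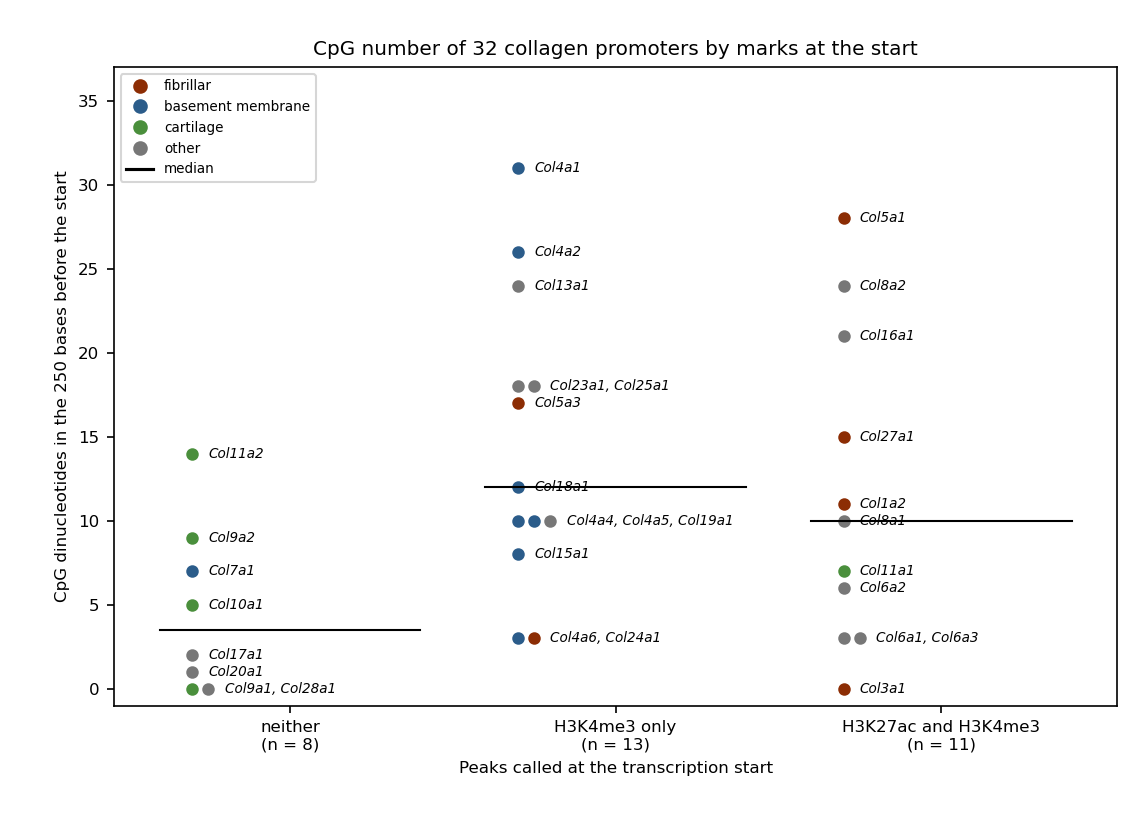
Each point is a collagen gene with a RefSeq promoter, placed by the peaks at its start (x axis) and by the number of CpG dinucleotides in the 250 bases before the start (y axis), coloured by class. Black lines are medians (3.5, 12 and 10), and the genes with neither mark lie between 0 and 14.

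GC boxes (GGGCGG on either strand) were found in 18 of 32 collagen promoters (56.2%), beside 32.7% of all promoters. The share was 72.7% with both marks, 53.8% with H3K4me3 alone and 37.5% with neither. The TATA box (TATAAA) was found in 15.6% against 12.4% of all promoters, and the CCAAT box (CCAAT) in 34.4% against 33.8%. The hypoxia core (ACGTG or GCGTG) was found in 28.1% against 38.6%, the Runx motif (TGTGGT) in 6.25% against 14.0%, and the AP-1 motif (TGACTCA) in 3.12% against 4.46%. All were counted on both strands of the same 250 bases, and none of these motifs contains another, though matches can overlap at their ends.

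The genes that modify and assemble collagen were read in the same way, from a list of 30. H3K4me3 lay at the start of 29 (96.7%) and H3K27ac at the start of 21 (70.0%, beside 37.6% of all genes) at both oxygen levels. Lox, which crosslinks collagen, was acetylated over 100% of its body, and Plod2, a lysyl hydroxylase whose product leads to stable crosslinks, over 91.7%, both at both oxygen levels. Serpinh1, the collagen chaperone Hsp47, had 60.3% at each. The 9 without H3K27ac at the start included Adamts2, Adamts3 and Adamts14, which cut the amino-terminal propeptides, and Loxl2, which also had no H3K4me3 there.

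Of these 30 genes, 5 (16.7%, beside 4.68% of all genes) had a hypoxia-only H3K27ac peak in the window and 1 (3.33%, beside 1.15%) a normoxia-only peak. P4ha2, an α subunit of prolyl 4-hydroxylase, the enzyme that stabilises the triple helix, had a hypoxia-only peak of 14000 bp with a score of 125, and its acetylated body share was 52.0% at 2% and 7.62% at 21% oxygen. Bmp1, the protease that cuts the carboxy-terminal propeptides, had one of 14000 bp with a score of 61, and its body share was 37.7% and 7.08%. The hypoxia-only peaks of Plod1 (lysyl hydroxylase), P3h1 (prolyl 3-hydroxylase) and Loxl3 (lysyl oxidase family) had scores of 54, 52 and 50, and the one in the window of P3h1 lay at the start of Cldn19. The normoxia-only peak lay in P4ha1, which encodes the other main α subunit, where the body share was 26.4% at 2% and 74.4% at 21% oxygen. This peak covered 24000 bp with a score of 63. Of all these peaks, only that of P4ha2 scored above the lowest 25% of its list (limits of 73 at 2% and 71 at 21% oxygen).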

How the data were processed

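MSCs were profiled in 12 libraries in 6 groups of 2 (H3K27ac, H3K4me3 and input at 2% and 21% oxygen). Reads had been mapped by the authors to mm10 (bowtie2) and cleared of duplicates (Picard), and peaks came from the differential mode of chromstaR (bins of 1000 bp, steps of 500 bp). All lists share 1 segmentation. Tool versions are not given in the sources used here. The deposited lists, 1 per mark and oxygen level, hold positions and a score per peak whose definition is not stated; it ran from 50 to 1000. They hold no counts or values per library, so depth, input signal and replicate spread were not analysed here, and no test between oxygen levels was made.

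Peaks were joined to GENCODE M21 basic protein-coding genes with Python 3.11.15, pandas 2.3.3 and numpy 2.4.6, and widths were cut at the window. The interval code was tested on simulated data. All 41 genes are accounted for. Described in full were those with a peak specific to 1 oxygen level, those with H3K27ac at a start, and the 3 of each class with the most acetylated bases. The genes and lists were chosen with earlier results of these data known, so shares are descriptions beside all genes, with 95% Wilson intervals from scipy 1.17.1. RefSeq promoters matched 32 of 41 genes. Col12a1, Col14a1, Col1a1, Col22a1, Col26a1, Col2a1, Col4a3, Col5a2 and Col9a3 had no entry there. Alternatives were window size, nearest start, score limit, start window, joining and class list. The sequence of 1 further peak is not reported here.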

Additional observations from a re-analysis of the deposited data

How the results depend on the processing

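No paired analysis was possible because the lists hold 1 set of calls per mark and oxygen level and no column for a library. For the same reason no replicate could be left out in turn, and depth could not be set against any value. Of 52 alternative values, 28 lay within a set tolerance of those reported and 24 outside it. The tolerance was 1.5 times for a count and the 95% Wilson interval for a share, taken over steps of 500 bp for acetylated shares, so that it was wider for shares of fewer steps. Without the lowest-scoring 25% of each list, 17 of 41 starts kept an H3K4me3 peak and 11 an H3K27ac peak. The acetylated share was then 32.5% in fibrillar, 0.227% in basement membrane and 6.76% in other collagen windows, and 9.26% at 2% against 9.86% at 21% oxygen over all collagens, so that the order of the oxygen levels turned, with 5 normoxia-only and 6 hypoxia-only peaks. New differences came from shared peaks with a score at or under the limit in 1 list only (73 at 2%, 71 at 21% oxygen), some near it, such as the 23000-bp peak of Col6a3 with scores of 73 and 85, and some further off, such as that near the start of Col27a1 with 81 and 52.

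With the gene body alone the shares were 50.3% (fibrillar), 0.270% (basement membrane) and 1.21% (cartilage), and with 50000 bp on each side 34.4% (fibrillar), 1.32% (basement membrane), 11.3% (all, 2% oxygen) and 11.0% (all, 21% oxygen). With peaks assigned only by the nearest start they were 0.227% (basement membrane), 1.16% (cartilage), 8.47% (other), 11.4% (all, 2% oxygen) and 11.0% (all, 21% oxygen). With Col2a1, Col11a1 and Col11a2 counted as fibrillar and only the 6 type IV genes as basement membrane, they were 33.4% (fibrillar), 0.171% (basement membrane), 0.738% (cartilage) and 8.78% (other). Joining peaks within 1000 bp left 2 hypoxia-only peaks, since the Col6a1 segments joined peaks present in both lists. The cause of the other moves was not tested.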
